A study of Mus musculus with 28 samples.

Results

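Quercetin and resveratrol were compared at an equal dose in the livers of obese mice. The arrays were chosen by their titles: 5 of mice fed a high fat diet with quercetin (HQ) and 6 of mice fed the same diet with resveratrol (HR), 11 of the 28 arrays of the series. Each compound made up 0.4% of the diet, which is 4 g per kg. All mice were male C57/6J animals that were 7 weeks old when feeding began and 33 weeks old when it ended after 26 weeks. By the labels, both groups share the high fat diet and differ in the compound alone. The other groups received a standard diet (SD, 5 arrays), the high fat diet alone (HFD, 6 arrays), or the high fat diet with both compounds at 0.2% each (HQR, 6 arrays, 2 g of each per kg). Intake per mouse was not analysed here, and RNA of 1 liver was hybridised to each array.

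Quercetin is a flavonol, a plant polyphenol with a fused ring system that carries hydroxyl groups. Resveratrol is a stilbene, in which a carbon double bond joins a pair of phenol rings. Both are taken up from the gut, coupled to glucuronic acid or sulfate by conjugating enzymes, carried by organic anion transporters and exported into bile, so the liver sees mostly conjugates. In cultured cells, polyphenols of both classes have been linked to the sensor NRF2, which drives antioxidant genes through an antioxidant response element. They have also been linked to the aryl hydrocarbon receptor, which drives Cyp1a1, and to the energy sensors SIRT1 and AMPK. In a liver on a high fat diet, PPARalpha drives fatty acid oxidation, while PPARgamma and SREBP-1c go with fat storage and fat synthesis.

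Levels are given as the log2 of the processed signal minus the array's 75th percentile, so a negative level lies below that percentile and levels of different genes are not comparable. A difference is the HQ mean minus the HR mean on that log2 scale, with its 95% interval from limma. The 75th percentile of the processed signal was 204 to 354 on the HQ arrays and 211 to 574 on the HR arrays. Between 59.3% and 71.1% of probes lay well above background in HQ, against 62.6% to 79.3% in HR. Neither of these, nor the spread of replicate spots or the correlation with other arrays, differed past the threshold between the groups (exact permutation tests, two-sided, p = 0.141 to 0.784, adjusted p = 0.251 to 0.784, smallest possible p = 0.00433). Scan days were not balanced: HQ 1 to HQ 5 were scanned on days 1, 2, 3, 3 and 4, and HR 1 to HR 6 on days 2, 2, 3, 4, 4 and 4. On day 4 the 75th percentile was 481 to 574 on the HR arrays and 354 on HQ 5. The share of probes well above background that day was 71.0% to 79.3% in HR and 65.6% in HQ 5. The median correlation between arrays was 0.957 within HQ, 0.972 within HR and 0.971 between HQ and HR. All 9 measured hepatocyte markers lay well above background on all 11 arrays. In RNA of whole liver, fewer cells of a type and less RNA per cell cannot be told apart.

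A few livers stood apart. HQ 1 carried RNA of pancreatic genes: over 8 measured pancreatic acinar markers its mean deviation from the 28-liver means was 3.55, against -0.94 to 0.19 in the other HQ livers and -0.89 to 0.56 in HR. Clps, a pancreatic lipase cofactor, was at 3.32 on HQ 1 and at -3.72 to -2.16 on the other HQ arrays. HQ 1 also had the highest mean over the 13 stellate cell and fibroblast markers, at 0.71, with Acta2, the smooth muscle actin, at 5.01. The markers did not move together there: Lrat, at -2.12, and Ngfr, at 0.325, were lower in HQ 1 than in any other HQ or HR liver. HR 1 was the highest HR liver for the same list, at 0.47, and lay far below the other HR livers for the transporter gene Slc22a7. HQ 4 was high in the 7 erythrocyte markers, at 1.31. HQ 2 had the lowest level of both groups in the lists of PPARalpha targets (-0.81), heat shock genes (-0.91) and oxidative phosphorylation subunits (-1.04). Values without HQ 1 or without HR 1 stand beside many of the results below.

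**Figure D1:**
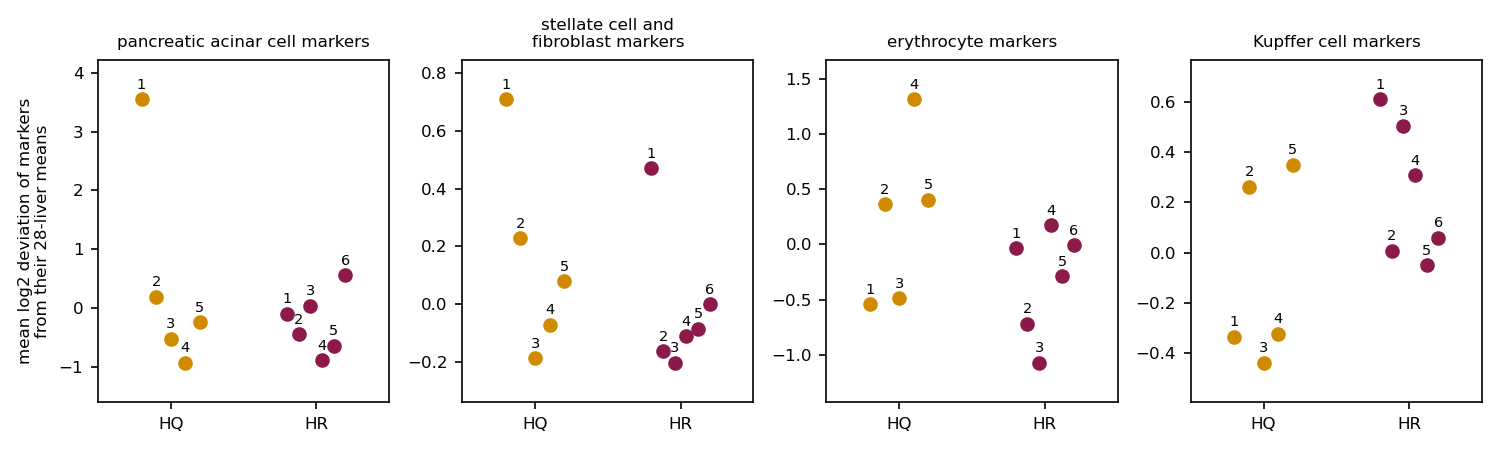
Levels of 4 marker lists in each HQ (n = 5) and HR (n = 6) liver, numbered by replicate. The vertical axis is the mean log2 deviation of a list's markers from their means over 28 livers. HQ 1 stands alone in the pancreatic list at 3.55 and is highest in the stellate list at 0.71, HQ 4 is highest in the erythrocyte list at 1.31, and the Kupffer cell values of the groups overlap.

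The comparison asks whether equal doses of these compounds leave a different mark on liver RNA. Of 21851 genes tested, 0 (0%) differed between HQ and HR after adjustment (limma, Benjamini-Hochberg, smallest adjusted p = 1.00). At an unadjusted p under 0.05, 282 genes (1.29%) lay apart, 138 of them higher in HQ (0.632%) and 144 higher in HR (0.659%), against the 5% that such a threshold allows. With normexp background correction the split was 43 higher in HQ and 24 higher in HR, and with slide as a block it was 382 and 252, again with 0 genes past adjustment. This was the 1 pair of compounds at a matched dose, so no further adjustment over pairs was needed. For 24 genes (0.11%) every HQ liver lay on one side of every HR liver, above them for 14 (0.0641%) and below them for 10 (0.0458%). Of all genes tested, 48.2% lay above 0 and 51.8% below, the shares that stand beside every list count further on. The median size of a difference was 0.130, the 95th percentile was 0.521, and 99 genes (0.453%) differed by more than 1. The lack of calls does not show that the flavonol and the stilbene act alike. The 95% interval lay inside a 2-fold difference in either direction (-1 to 1) for 15858 genes (72.6%), and its median half-width was 0.588. For the remaining genes a 2-fold difference lay within reach of the interval. The adjusted p of every gene named here was 1.00 (limma), so all values below are descriptions of these 11 livers, and parentheses give 95% intervals.

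**Figure D2:**
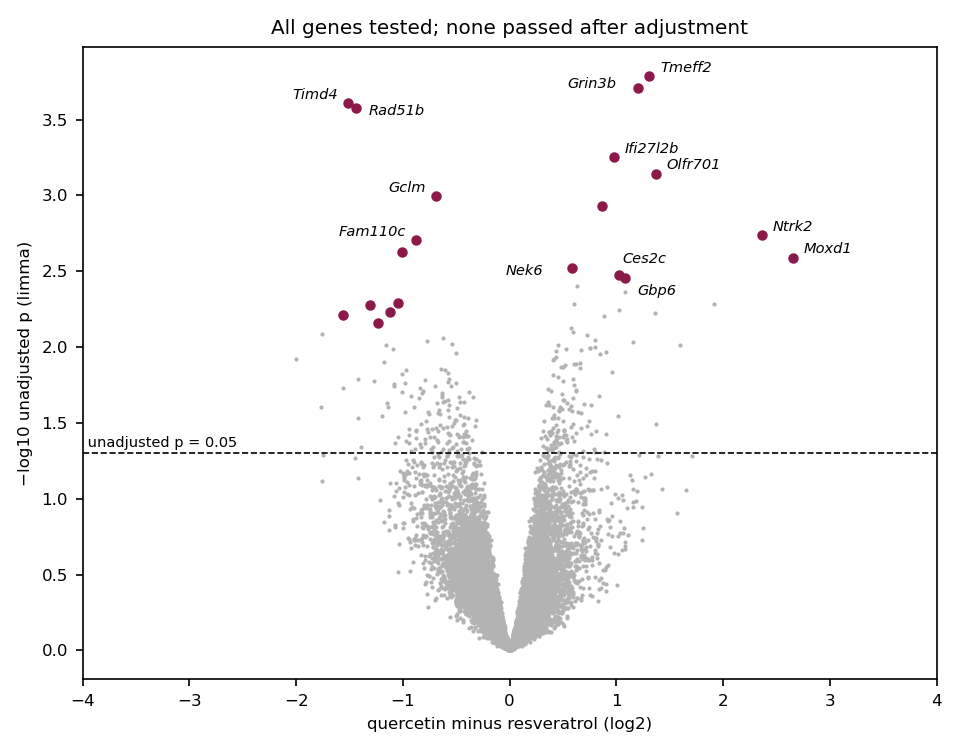
Difference (quercetin minus resveratrol, log2, horizontal) against -log10 of the unadjusted p (vertical) for the 21851 genes tested with limma. Red points are the 20 leading genes, 10 in each direction, and the dashed line is an unadjusted p of 0.05, which 282 genes passed. No gene passed after adjustment.

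Among the 10 genes with the smallest unadjusted p on the quercetin side, a surface protein, a glutamate receptor subunit, interferon-induced genes and a carboxylesterase stood out. Tmeff2 encodes a membrane protein with follistatin-like modules (probe at mm9 chr1:51242393-51242452). Its levels in the HQ livers were -1.82, -2.84, -2.02, -1.85 and -2.14. In HR they were -3.71, -3.62, -4.77, -2.67, -3.03 and -2.87. HQ 2 lay below the brightest HR liver, so the groups overlapped, and 4 of 6 HR arrays were well above background. The difference was 1.31 (0.70 to 1.92), a 2.48-fold higher mean in HQ, or 0.59 with normexp background correction. It was 0.87, 2.92 and 0.88 within the 3 slides that held both groups. Each of these slides held 1 HQ and 1 HR liver: HQ 2 with HR 1, HQ 4 with HR 3, and HQ 5 with HR 5.

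Grin3b, a subunit of NMDA-type glutamate receptors (mm9 chr10:79439842-79439901), was one of 5 leading genes whose groups did not overlap. Its HQ levels were -0.27, -0.20, -0.21, -0.58 and -0.08, and its HR levels were -1.47, -1.54, -1.35, -1.21, -1.49 and -1.75. The livers of each group lay close together and a clear gap separated them. The difference was 1.20 (0.63 to 1.77), or 2.30-fold, and it was 1.20 without HQ 1, 1.20 without HR 1 and 0.77 with normexp background correction. It was 1.26, 0.76 and 1.41 within the shared slides.

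Ifi27l2b belongs to a family of small interferon-induced mitochondrial proteins (mm9 chr12:104689276-104689335). It was at 3.44, 3.75, 4.12, 3.29 and 2.63 in HQ and at 2.71, 2.32, 2.40, 2.71, 2.19 and 2.49 in HR. HQ 5 lay among the HR livers and the other HQ livers lay above them. The difference was 0.98 (0.47 to 1.49), or 1.97-fold, and 1.05, 0.89 and 0.44 within the shared slides. Gbp6, an interferon-inducible GTPase, was at 0.28, -0.21, 0.22, 0.13 and -0.80 in HQ, and in HR from -2.07 to -0.68 with a median of -0.86. It differed by 1.08 (0.39 to 1.77), again with HQ 5 inside the HR range, and by 0.56 with normexp. Within the shared slides Gbp6 differed by 1.86, 0.81 and -0.12.

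Ces2c, a carboxylesterase that cleaves esters and amides of drugs and lipids (mm9 chr8:107378292-107378351), was at 5.58, 3.85, 4.43, 4.41 and 4.08 in HQ. Its HR levels were 2.46, 3.31, 3.33, 3.40, 4.07 and 4.12. HQ 1 was the highest liver and HR 1 the lowest, and HR 5 and HR 6 reached into the HQ range. The difference was 1.02 (0.37 to 1.67), or 2.03-fold, and 0.74 without HQ 1. A second probe of the gene gave 0.36. Within the shared slides Ces2c differed by 1.39, 1.08 and 0.01.

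Moxd1, a monooxygenase-like gene with a known male bias in mouse liver, had the largest difference of the leading genes at 2.65 (1.02 to 4.29). Its HQ levels were -1.20, -2.03, -0.74, -2.38 and -2.31, against -5.59, -2.20, -5.13, -3.96, -3.93 and -5.50 in HR. HR 2 lay within the HQ range, and only 3 of 6 HR arrays were well above background. With normexp the difference was 0.87, and within the shared slides it was 3.55, 2.75 and 1.63. Ntrk2, the receptor of brain-derived neurotrophic factor, was at -3.18, -2.92, 0.04, -4.40 and -6.02 in HQ, well above background on 3 arrays. In HR it ran from -7.14 to -4.60 with a median of -5.55 and was not well above background on any array. HQ 3 was far the highest liver and HQ 5 lay within the HR range. The HQ mean of -3.30 was 2.07-fold higher, set against each HR array's detection limit, or against the probe's own signal where that is higher. Such a fold describes the means of these livers and carries no sampling error. Without HQ 3 it was 1.16-fold, and the fitted difference was 1.53 in place of 2.37 (0.96 to 3.77). Over all livers the fitted difference was 0.65 with normexp, and within the shared slides it was 1.68, 1.46 and -0.78.

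The other leading genes on this side were Olfr701, an olfactory receptor gene that differed by 1.37 (0.63 to 2.10), or 0.55 with normexp, with 4 of 6 HR arrays well above background, 6330403L08Rik at 0.87 (0.38 to 1.35), or 0.54 with normexp, and Nek6. Nek6 encodes a mitotic kinase and was at 0.80, 1.00, 0.64, 1.15 and 0.85 in HQ. In HR it was at 0.92 in HR 4 and at 0.01 to 0.25 in the other 5 livers. Its 3 probes differed by 0.32 to 0.58.

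On the resveratrol side the leading genes included a DNA repair factor, a Kupffer cell receptor and the rate-setting partner of glutathione synthesis. Rad51b, a gene of homologous recombination (mm9 chr12:80915000-80915059), was at 0.32, -0.01, 0.58, 0.53 and 0.74 in HQ. Its HR levels were 2.74, 1.41, 1.77, 1.74, 1.26 and 2.32. All HR livers lay above all HQ livers, and HR 1 was the highest. The difference was -1.44 (-2.14 to -0.74), a 2.71-fold higher mean in HR. It kept its sign in all 27 alternatives, at -1.41 without HQ 1 and -1.26 without HR 1.

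Timd4, a phosphatidylserine receptor of resident liver macrophages (mm9 chr11:46657173-46657232), was at -6.42, -4.23, -5.19, -4.10 and -4.19 in HQ and was not well above background on any HQ array. In HR it was at -3.24, -3.49, -3.48, -2.47, -3.46 and -3.75 and well above background on all 6 arrays. The groups did not overlap, and the HR mean was 1.63-fold higher, again against the detection limit and with no sampling error. The fitted difference was -1.51 (-2.25 to -0.78), and with normexp background correction it was 0.03, when the median of all genes shifted to 0.12.

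Gclm encodes the modifier subunit of glutamate-cysteine ligase, which starts glutathione synthesis (mm9 chr3:121962174-121964809). Its HQ levels were -2.78, -2.59, -1.52, -2.17 and -2.22 and its HR levels were -1.05, -1.67, -2.04, -1.67, -1.58 and -1.38. HQ 3 lay among the HR livers, while HQ 1 and HQ 2 were the lowest. The difference was -0.69 (-1.07 to -0.31), a 1.61-fold higher mean in HR, and -0.23 with normexp. It was -0.56 without HQ 1 and -0.59 without HR 1.

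Fam110c, a centrosome-associated gene, was not well above background on any HQ array but on all 6 HR arrays. Its HQ levels were -4.45, -4.13, -4.14, -4.36 and -4.47, below all HR levels of -3.81 to -2.89. The HR mean was 1.5-fold higher, set against the detection limit in the same way and with no sampling error. The fitted difference was -0.88 (-1.40 to -0.35), or 0.10 with normexp. Its other probe gave -0.41. The remaining 6 names on this side (A_51_P305350, AK053748, Gm16223, A_52_P988832, LOC100044624 and A730049H05Rik) are not described further here. LOC100044624, a predicted kinase-like gene, was the last of the 5 without overlap, but it was well above background on no HQ array and on 3 of 6 HR arrays, so no fold is given. With normexp, 7 of the 10 genes on this side took the opposite sign: Timd4, Fam110c, A_51_P305350, AK053748, Gm16223, LOC100044624 and A730049H05Rik. Of the leading 20, 9 were well above background on all 11 arrays, 6 on the quercetin side and 3 on the resveratrol side.

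**Figure D3:**
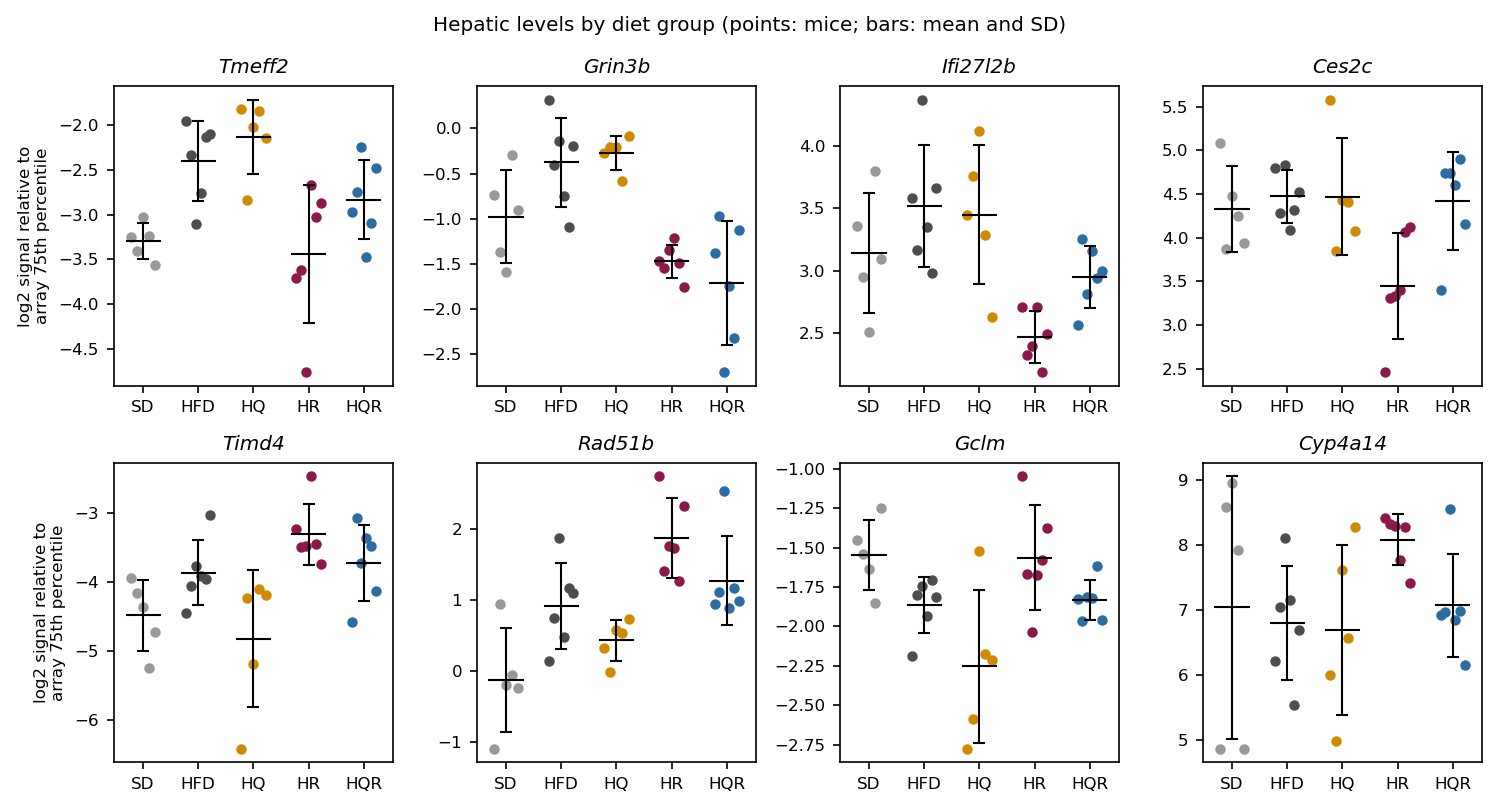
Levels of 8 genes (log2 signal relative to the array's 75th percentile) in SD (n = 5), HFD (n = 6), HQ (n = 5), HR (n = 6) and HQR (n = 6), 1 point per mouse, with the group mean and SD. Grin3b, Timd4 and Rad51b do not overlap between HQ and HR, while Tmeff2, Ifi27l2b, Ces2c, Gclm and Cyp4a14 do.

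The levels on the high fat diet alone show where each group lay. For 8 of the 10 genes higher in HQ the HFD mean was nearer the HQ mean, and for 3 of the 10 genes higher in HR. Ces2c averaged 4.47 ± 0.67 (SD, n = 5) in HQ and 4.47 ± 0.30 (n = 6) in HFD, against 3.45 ± 0.61 (n = 6) in HR. Ifi27l2b was at 3.52 ± 0.49 in HFD, close to its HQ mean of 3.45 and above its HR mean of 2.47. Moxd1 went the other way: its HFD mean of -5.32 lay nearer the HR mean of -4.38 than the HQ mean of -1.73, and SD was at -0.14. In the mice that received both compounds, the mean lay between HQ and HR for 16 of the 20 genes and nearer to HR for 17. Grin3b was an exception, with an HQR mean of -1.71 below both HQ (-0.27) and HR (-1.47). The 20 genes were chosen for their difference between HQ and HR, so these are values side by side.

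The genes that handle polyphenols gave no call. Of 33 measured genes of cytochrome P450 drug metabolism, the P450 reductase gene Por among them, 0 passed in either direction at an unadjusted p under 0.05. Above 0 lay 24 and below it 9, and the median difference was 0.14. Over all genes 48.2% lay above 0 and 51.8% below, with a median of -0.01. Without HR 1 the P450 median was 0.09. Of 37 conjugation enzymes (glucuronosyl-, sulfo- and glutathione transferases), 19 lay above 0 and the median was 0.00. Ugt1a1, a glucuronosyltransferase of bilirubin and polyphenols, differed by -0.07 (-0.61 to 0.46), and Sult1a1, a phenol sulfotransferase, by 0.14 (-0.59 to 0.88). Both intervals exclude a 2-fold difference. Abcc2, which exports conjugates into bile, differed by 0.11 (-0.34 to 0.55).

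Polyphenol transport gave no call. Of 13 transporter genes 10 lay above 0, 3 of them at an unadjusted p under 0.05 and none below 0 at that level, with a median of 0.11. Without HR 1, 7 of 13 lay above 0 and the median was 0.02. Over all genes 48.2% lay above 0, and 0.632% reached that p with a higher mean in HQ. Slc22a7 encodes the organic anion transporter OAT2, and its HQ levels were 3.06, 2.79, 2.02, 3.28 and 2.83. In HR it was at -0.94 in HR 1 and at 1.59, 2.06, 2.36, 1.79 and 1.75 in the others. The difference of 1.36 (0.43 to 2.29) was 0.88 without HR 1, so 1 liver supplied much of it. Slco2b1, an organic anion transporter, differed by 0.41 (0.08 to 0.73) and Slco1b2, the sinusoidal uptake carrier of the liver, by 0.34 (0.05 to 0.64). The Slco1b2 levels of the HQ livers ran from 8.89 to 9.16 and those of HR from 8.44 to 9.04.

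Differences in the aryl hydrocarbon receptor pathway were small on average, with 6 of 11 measured genes above 0 and a median of 0.02. Cyp1a1 is the receptor's classical target, and the 250 bases before its start (RefSeq, GRCm38.p6, chr9:57697363-57697612, plus strand) are shown because the core of its response element, GCGTG, stands there. Searched on both strands, it matched once, on the plus strand 54 to 50 bases upstream, in capitals:
Cyp1a1: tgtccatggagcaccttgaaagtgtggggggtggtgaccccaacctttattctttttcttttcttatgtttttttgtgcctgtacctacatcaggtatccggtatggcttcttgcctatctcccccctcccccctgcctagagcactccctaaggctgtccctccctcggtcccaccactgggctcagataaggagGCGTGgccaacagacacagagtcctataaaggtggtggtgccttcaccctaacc
The core occurs in 28.2% of 32851 such windows and, counted by gene, before 30.9% of 27025 genes. It stands before 5 of the 9 matched genes of the list (Ahrr, Arnt, Cyp1a1, Cyp1b1 and Tiparp). The match is a description of letters, not of binding. Cyp1a1 was at -1.11, -3.50, -3.96, -3.84 and -3.79 in HQ and between -3.85 and -2.26 in HR, with a median of -3.25. HQ 1 stood above all other livers of both groups. The difference was 0.02 (-0.89 to 0.93) with HQ 1 and -0.52 without it. Cyp1a2, its neighbour with a role in drug oxidation, differed by 0.02 (-0.83 to 0.87).

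Most antioxidant genes had a higher mean in HR, with no call. Of 36 measured NRF2 targets and antioxidant enzymes, 26 lay below 0, the median was -0.11, and 3 reached an unadjusted p under 0.05, all higher in HR: Gclm, Cbr1 and Gsta2. Among all genes 51.8% lay below 0, and 0.659% reached that p with a higher mean in HR. Cbr1, a carbonyl reductase, was at 2.16, 1.78, 2.75, 3.27 and 2.16 in HQ and at 3.86, 2.71, 2.50, 2.66, 2.91 and 3.32 in HR, a difference of -0.57 (-1.08 to -0.06), with overlap. Gsta2, an alpha-class glutathione transferase, differed by -0.62 (-1.24 to -0.01), and by -0.37 without HR 1, its highest liver at 1.78. Without HR 1 the median of the list was 0.03 and 20 of 36 genes lay above 0, so its direction rested on that liver.

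The promoter of Gclm, the leading gene of this group, holds the core of an antioxidant response element, TGACNNNGC, on the minus strand, 134 to 126 bases upstream of the start. The 250 bases before the start (RefSeq, GRCm38.p6, chr3:122245307-122245556, plus strand) follow with the match in capitals:
Gclm: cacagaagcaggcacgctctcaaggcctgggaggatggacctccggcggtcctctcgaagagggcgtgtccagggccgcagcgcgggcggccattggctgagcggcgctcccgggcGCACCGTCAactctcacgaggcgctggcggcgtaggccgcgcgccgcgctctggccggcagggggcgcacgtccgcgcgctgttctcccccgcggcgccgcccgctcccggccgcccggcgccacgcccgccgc
On both strands this core stands in 10.2% of 32851 windows and, counted by gene, before 11.5% of 27025 genes. It stands before 6 of the 31 matched genes of the list (G6pdx, Gclm, Nfe2l2, Prdx1, Sod1 and Txnrd1). Of these, Gclm alone reached an unadjusted p under 0.05. Other textbook NRF2 targets differed little or had wide intervals. Nqo1, a quinone reductase, differed by -0.03 (-0.88 to 0.83), and Hmox1, heme oxygenase 1, by -0.38 (-1.13 to 0.38), or -0.09 without HR 1. Nfe2l2, which encodes NRF2 itself, differed by 0.33 (-0.16 to 0.81).

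Most protein-folding genes also had a higher mean in HR. Of 21 heat shock genes 18 lay below 0, with a median of -0.27 and 0 at an unadjusted p under 0.05, and the median was -0.11 with slide as a block. Against HFD, whose arrays both comparisons share, the list's median was -0.08 for HQ and 0.26 for HR. The HQ minus HR median of the list kept its sign in 26 of 27 alternatives and reached 0.016 at most. By liver, its level was -0.91 in HQ 2 and 0.07 to 0.64 in the other HQ livers, and ran from -0.37 to 0.71 in HR. The mean level was 0.03 in HQ and 0.27 in HR, and HQ 2 supplied much of that gap. Hsph1, a large cytosolic chaperone, differed by -0.69, or -0.27 with slide as a block, and Hspb1, a small one, by -0.49. Among 30 chaperones and unfolded protein response genes of the endoplasmic reticulum, 20 lay below 0 and the median was -0.10. It was -0.04 without HR 1 and -0.04 with slide as a block, with 13 of 30 genes above 0 in each. Ddit3, a transcription factor of that response, differed by -0.54 (-1.07 to -0.01).

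No gene of the energy sensors was called. Of 26 genes around the sirtuins, AMPK and PGC-1alpha, 14 lay above 0, the median was 0.04, and 0 reached an unadjusted p under 0.05. Sirt1, the deacetylase most often linked to resveratrol, was at 3.01, 3.35, 3.08, 2.28 and 2.80 in HQ. In HR it was at 3.68, 3.03, 3.49, 2.66, 2.25 and 2.46. The groups covered the same range and the difference was -0.02 (-0.57 to 0.53), which excludes a 2-fold difference in its RNA. Ppargc1a, the coactivator PGC-1alpha, differed by -0.32 (-0.92 to 0.28). Prkaa2, a catalytic AMPK subunit, differed by -0.30 (-1.41 to 0.82), with HQ 2 alone at -1.10 while the other HQ livers lay at 1.23 to 2.06.

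Of 34 single genes chosen for polyphenol and fatty liver biology, 33 were measured, and Pck1 was not. The interval lay inside -1 to 1 for 15 and was wider than 2 in all for 16, and 21 differences lay above 0. At an unadjusted p under 0.05 stood 3: Moxd1, Pparg and Cyp4a14.

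**Figure D4:**
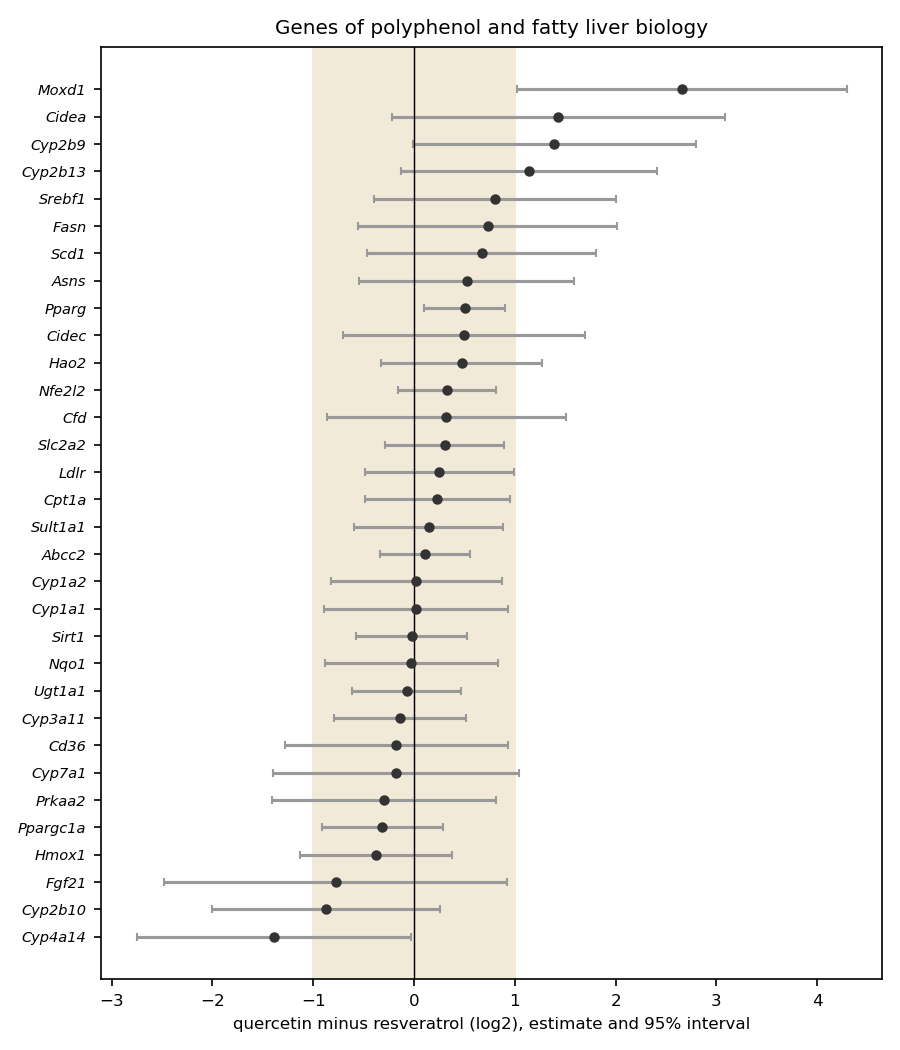
Difference (quercetin minus resveratrol, log2) with its 95% interval (limma) for 32 of the 33 measured genes of polyphenol and fatty liver biology, HQ n = 5 and HR n = 6. The shaded band marks -1 to 1, a 2-fold difference either way. The intervals of 14 plotted genes lie inside it, Sirt1 and Ugt1a1 among them, while Moxd1 at 2.65 and Cyp4a14 at -1.39 lie centred outside.

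Most genes of fatty acid oxidation had a higher mean in HR and most of fat synthesis a higher mean in HQ, with no call in either. Of 41 measured PPARalpha targets, 31 lay below 0, the median was -0.24, and 3 reached an unadjusted p under 0.05, all higher in HR: Cyp4a31, Acot3 and Cyp4a14. The shares over all genes were 51.8% below 0 and 0.659% at that p with a higher mean in HR. Cyp4a14, an omega-hydroxylase of fatty acids and a strong PPARalpha target, was at 6.01, 4.99, 7.63, 6.57 and 8.29 in HQ. In HR it lay at 8.42, 8.34, 8.30, 7.78, 8.28 and 7.42, a narrow band within which HQ 3 and HQ 5 also fell. The difference was -1.39 (-2.75 to -0.03), and -1.22 without HQ 1. It was -3.43, -1.72 and 0.01 within the shared slides.

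Acot3, a peroxisomal acyl-CoA thioesterase, was at -3.57, -2.86, -1.24, -3.15 and -1.85 in HQ and at 0.11, -0.59, -1.32, -2.66, -0.98 and -1.29 in HR. The groups overlapped through HQ 3 and HR 4, and the difference was -1.42 (-2.68 to -0.15), or -0.53 with normexp. Cyp4a31, a relative of Cyp4a14 whose probe may share sequence with other members of its family, differed by -1.56 (-2.83 to -0.28), with 3 of 5 HQ arrays well above background, and by -0.16 with normexp. Cpt1a, the gatekeeper of mitochondrial fatty acid entry, differed the other way, by 0.23 (-0.49 to 0.95). Without HQ 1 the median of the list was -0.11 and 12 genes lay above 0, and without HR 1 it was -0.15. The median kept its sign in 25 of 27 alternatives and reached 0.005 at most. By liver, the list level was lowest in HQ 2, at -0.81. It was -0.44 in HQ 1, 0.38 in HQ 3, -0.20 in HQ 4 and 0.61 in HQ 5. In HR it ran from -0.09 to 0.59, so the groups overlapped. The mean level was -0.09 in HQ and 0.22 in HR, and HQ 2 lowered the HQ mean most. Set against the shared HFD arrays, the list's median was -0.04 for HQ and 0.26 for HR. Fgf21, a hepatokine under PPARalpha, differed by -0.78 (-2.48 to 0.92) and by -0.15 without HR 1.

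Of 26 genes of fatty acid and triglyceride synthesis, 19 lay above 0, with a median of 0.16 that kept its sign in all 27 alternatives and was 0.27 without HQ 1. Elovl6, the elongase of saturated fatty acids, alone reached an unadjusted p under 0.05. It was at 2.16, 3.01, 1.48, 1.99 and 2.29 in HQ and at 1.00, 1.53, 0.65, 1.54, 1.32 and 2.25 in HR, so HQ 3 and HR 6 made the groups overlap. The difference was 0.80 (0.21 to 1.40). Srebf1, which encodes SREBP-1c, differed by 0.80 (-0.40 to 2.01), Fasn, fatty acid synthase, by 0.73 (-0.55 to 2.02) and Scd1, the stearoyl-CoA desaturase, by 0.67 (-0.46 to 1.81). These intervals hold both 0 and a 2-fold difference. Srebf1 differed by 0.48 without HR 1 and Scd1 by 1.12 without HQ 1.

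Fat storage genes were divided. Pparg was at 3.20, 2.39, 2.80, 3.18 and 2.61 in HQ and at 2.46, 2.47, 2.16, 2.65, 2.07 and 2.18 in HR. Only HQ 2 and HQ 5 lay within the HR range, and the difference was 0.50 (0.10 to 0.91). HFD was at 2.95 ± 0.30 (SD, n = 6), nearer HQ (2.83 ± 0.35, n = 5) than HR (2.33 ± 0.23, n = 6). Cidea, a lipid droplet fusion protein that is typical of fatty livers, differed by 1.43 (-0.22 to 3.08), with HQ levels of 2.09 to 6.21 and HR levels of -0.66 to 3.84. Plin1, the adipocyte perilipin, went the other way at -1.09 (-1.90 to -0.28), or -0.04 with normexp, near the detection limit, well above background on 2 HQ and 5 HR arrays. Within the shared slides Plin1 differed by -1.23, -0.86 and 0.92. Over 27 lipid droplet and PPARgamma genes, 15 lay above 0 and the median was 0.06.

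The median differences of sterol and bile acid genes lay near that of all genes, -0.01. Of 25 genes of cholesterol synthesis and uptake 15 lay below 0 (median -0.03), of 23 genes of cholesterol export 12 lay above (median 0.02), and of 29 bile acid genes 14 lay above (median -0.02). Abca1, the cholesterol exporter, differed by 0.60 (0.11 to 1.09), and by 0.35 without HR 1, which was at 1.64 when the other HR livers lay at 2.96 to 3.38. Cyp7a1, which sets the pace of bile acid synthesis, differed by -0.18 (-1.40 to 1.04). Of 27 genes of glucose handling and insulin signalling, 19 lay above 0 and the median was 0.18, with its sign kept in all 27 alternatives. Pygl, the liver glycogen phosphorylase, alone reached an unadjusted p under 0.05, at 0.40 (0.04 to 0.75), while its other probe gave 0.13.

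Sex-biased genes were examined because growth hormone sets them in mouse liver and diet can shift them. Of 26 measured male-biased genes, 20 lay above 0, 4 reached an unadjusted p under 0.05, all higher in HQ, and the median was 0.24. These were Moxd1, Serpina12, C6 and Mup3, a major urinary protein gene of a near-identical family, which differed by 0.37 (0.05 to 0.68). Among all genes 48.2% lay above 0, and 0.632% reached that p with a higher mean in HQ. Serpina12, the adipokine vaspin, was at -1.87, -2.99, -3.59, -2.19 and -1.94 in HQ and at -5.05, -3.87, -4.52, -2.54, -2.98 and -3.04 in HR, a difference of 1.15 (0.31 to 1.99) with overlap, or 0.58 with normexp. The mean level of the male-biased list over all its measured members lay lowest in HR 1, at -1.11. Female-biased genes were split, with 14 of 25 above 0 and a median of 0.03. Cyp2b9 and Cyp2b13, female-biased P450 genes that share sequence, differed by 1.39 (-0.01 to 2.80) and 1.14 (-0.13 to 2.41). Their probes may cross-hybridise.

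Most interferon genes had a higher mean in HQ, with no call. Of 38 measured genes, 30 lay above 0 and 8 below, with a median of 0.26, and 3 reached an unadjusted p under 0.05, all higher in HQ: Psmb9, Ifih1 and Rtp4. The shares over all genes were 48.2% above 0 and 0.632% at that p with a higher mean in HQ. Psmb9, a subunit of the immunoproteasome, was at 1.92, 3.01, 2.79, 2.93 and 3.06 in HQ and at 2.05, 1.54, 2.19, 2.85, 2.27 and 1.59 in HR. HQ 1 lay among the HR livers and HR 4 among the HQ livers. The difference was 0.66 (0.15 to 1.17), and 0.87 without HQ 1. Ifih1, the RNA sensor MDA5, differed by 0.40 (0.03 to 0.78) and Rtp4, an interferon-induced chaperone, by 0.44 (0.03 to 0.85). A second Ifih1 probe gave 0.02. The median of the list was 0.35 without HQ 1 and 0.15 with slide as a block, and kept its sign in all 27 alternatives. Its mean level by liver ran from -0.05 to 0.42 in HQ and from -0.36 to 0.23 in HR, so the groups overlapped. Against the shared HFD arrays the median was 0.25 for HQ and 0.03 for HR. Over 28 cytokine and adhesion genes the median was -0.07.

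Most markers of sinusoidal cells and resident macrophages had a higher mean in HR, with no call. Of 16 sinusoidal endothelial markers 14 lay below 0, with a median of -0.19. Clec4g, a lectin of these cells, was at 3.26, 3.67, 3.96, 4.15 and 4.39 in HQ and at 4.14 to 4.73 in HR with a median of 4.53, a difference of -0.59 (-1.16 to -0.02), or -0.43 without HQ 1. Of 12 Kupffer cell markers 11 lay below 0, with a median of -0.28, or -0.06 with normexp. Timd4 was the one whose groups did not overlap, beside 0.11% of all genes. Cd163, a scavenger receptor, differed by -0.51, while Clec4f, the defining lectin, differed by -0.20. C6, a complement gene that is also made by hepatocytes, was the exception at 0.84 (0.21 to 1.48). The list levels ran from -0.44 to 0.35 in HQ and from -0.05 to 0.61 in HR for Kupffer cells, and from -0.12 to 0.24 and 0.05 to 0.42 for sinusoidal cells. Against the shared HFD arrays the medians were 0.24 in HQ and 0.52 in HR for Kupffer cells, and 0.29 and 0.53 for sinusoidal cells. Their part in the differences of Timd4 and Clec4g was not tested.

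Stellate cell, matrix, erythrocyte and pancreatic markers had mostly higher means in HQ, with no call. Of 13 stellate cell and fibroblast markers 11 lay above 0, with a median of 0.20, which was 0.04 with slide as a block (8 above 0). Without HQ 1 and HR 6 it was 0.07. Of 44 matrix genes 30 lay above 0 (median 0.07, but -0.02 without HQ 1). All 7 erythrocyte markers lay above 0, with a median of 0.63 that kept its sign in all 27 alternatives. Hba-a1, an alpha globin, was at 7.48 in HQ 4 and at 4.32 to 6.14 in the other HQ livers, against 3.52 to 5.99 in HR. The pancreatic markers had a median of 0.47 with HQ 1 and -0.12 without it.

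**Figure D5:**
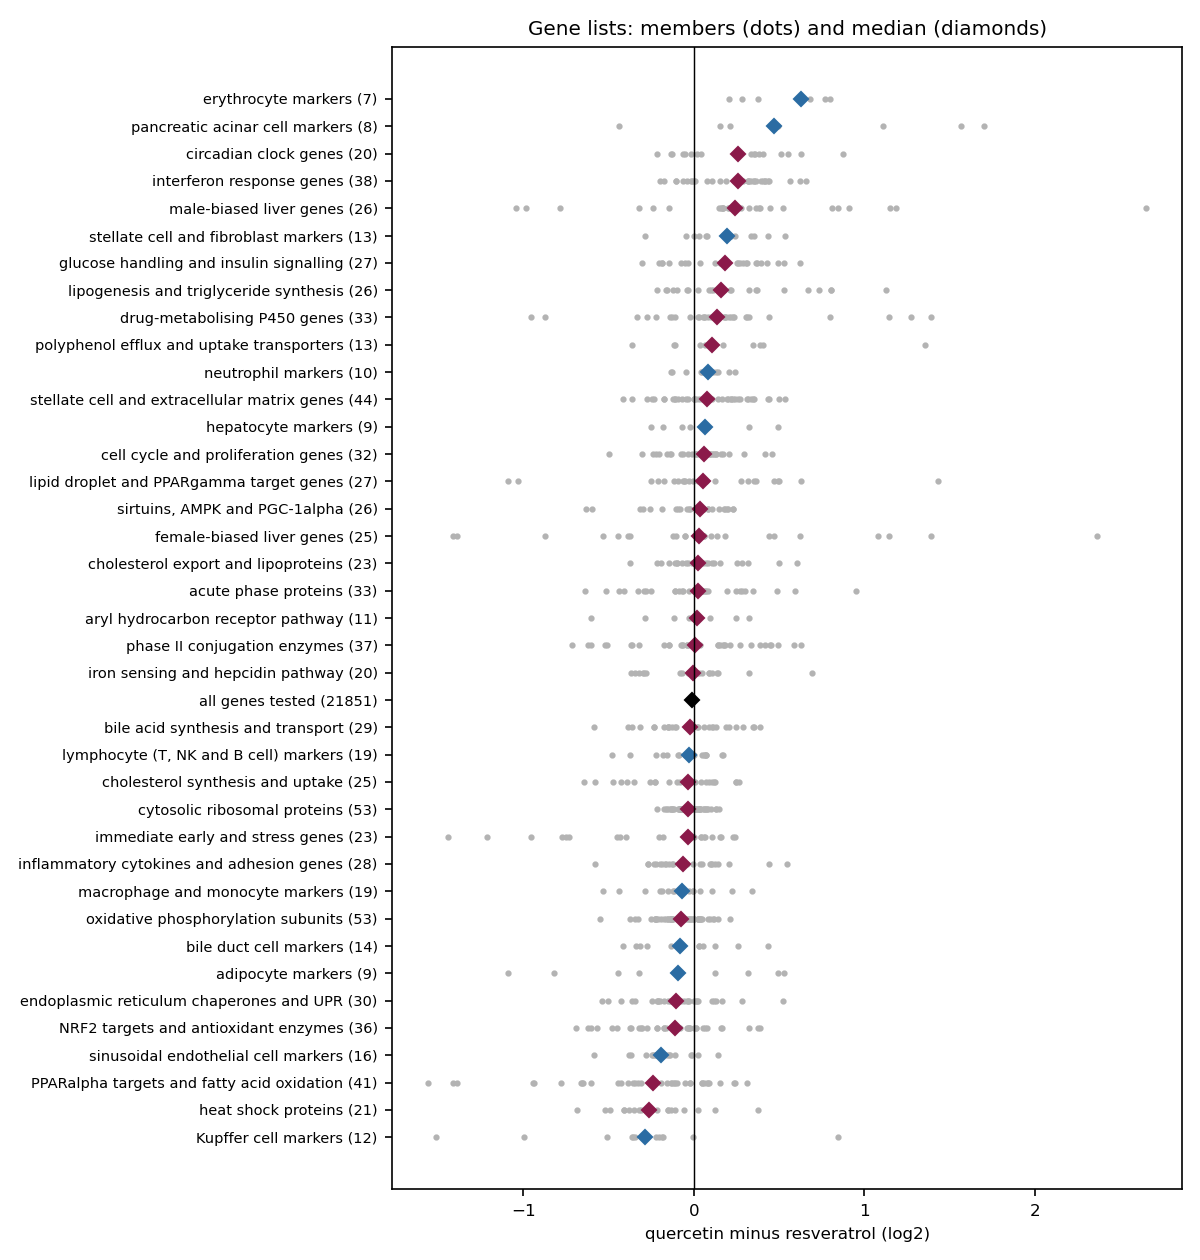
Difference (quercetin minus resveratrol, log2) of each measured member (dots) and the list median (diamonds) for 38 gene lists, with the number of members measured. Red diamonds are pathways, blue diamonds cell type markers and the black diamond is the median of all genes, at -0.01. The medians run from -0.28 for Kupffer cell markers to 0.63 for erythrocyte markers.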

How the data were processed

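Liver RNA of 28 mice was measured on 1-colour (Cy3) Agilent whole mouse genome arrays with 45018 spots. Leaving out controls, 43379 spots and 41174 probes remained. Per the file headers, Agilent Feature Extraction 10.5.1.1 computed a processed intensity for every spot by background subtraction and detrending, with surrogates for signals below the noise. The deposited value table holds a score per probe and array, standardised to a mean of 0 and an SD of 1 within each array. Its scale is stated nowhere in the sources used here, but it tracked the logarithm of the processed intensities (lowest correlation 1.00, medians -0.17 to -0.10), so it served as an alternative after multiplication by 3.21. Flags for spots well above background (coded 0 or 1) are deposited beside each signal. Per the labels, 2 further RNA samples were left out for degradation.

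Processed intensities were converted to log2 and averaged over the spots of a probe, and levels were expressed relative to the 75th percentile of each array's non-control probes. Probes had to be well above background on at least 5 arrays. The brightest of a gene's probes stood for it, which gave 21851 genes, and 186 of them lack a value on some array because of outlier spots. Gene names were updated through RefSeq (25097 probes by accession, 6333 by symbol, 1640 by synonym, 8104 kept the array's name). Probe coordinates are mm9 per the file headers, promoter coordinates GRCm38.p6. Which part of a transcript a probe covers was not analysed here.

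All 28 arrays were fitted with limma 3.58.1 in R 4.3.3, with 1 coefficient per group, two-sided tests and Benjamini-Hochberg adjustment over all genes at 0.05. Named genes are the 10 with the smallest p in each direction, the 2 members of each list with the smallest p, and 34 genes of polyphenol and fatty liver biology. A few other list members are named as examples. Of the 34, 1 measured gene is not reported here. The members, lists and genes were chosen with earlier results of these data known. Each array is a separate mouse. Of 5 replicate numbers shared by HQ and HR, 1 shares a slide, and the numbers were not used to pair livers. The alternatives were other normalizations and background corrections, other filters and probe rules, the value table, other variance models, blocks for the slide, the day of the scan or the number of the replicate, and each array left out in turn. Leaving out HQ 1 and HR 6 together was added after the data had been seen. The pipeline was tested on simulated data.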

Additional observations from a re-analysis of the deposited data

Results flagged for a closer look

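In 318 groups of HQ or HR values, 1 liver lay apart from the rest in 16 by Dixon's test at 95%, where chance gives about 1 in 20. HQ 1 accounted for 5 of the 6 in HQ. Its pancreatic acinar list level was 3.55 (other HQ livers -0.94 to 0.19), Clps was at 3.32 (-3.72 to -2.16) and Cyp1a1 at -1.11 (-3.96 to -3.50). Psmb9 was at 1.92 (2.79 to 3.06) and Rela, an NF-kappaB subunit, at 1.78 (2.28 to 2.47). In HQ 2, Prkaa2 was at -1.10 (1.23 to 2.06).

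HR 1 accounted for 5 of the 10 in HR. Slc22a7 was at -0.94 there (other HR livers 1.59 to 2.36), Abca1 at 1.64 (2.96 to 3.38), Hmox1 at 2.39 (0.22 to 1.02) and the interleukin gene Il1a at -4.48 (-3.82 to -3.43). Its stellate cell and fibroblast list level was 0.47 (-0.20 to 0.00). In HR 4, Nek6 was at 0.92 (0.01 to 0.25), Sqle, a cholesterol synthesis enzyme, at -0.93 (-1.89 to -1.54) and Cyp2b10, a P450 under the receptor CAR, at -6.75 (-4.93 to -3.93), though Cyp2b10 was well above background on 1 of 6 HR arrays and on no HQ array. Spp1, osteopontin, was at 2.75 in HR 3 (4.43 to 5.33). Bmp2, an endothelial signal of iron sensing, was at -1.26 in HR 6 (-0.77 to -0.50).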

How the results depend on the processing

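In all 27 alternatives 0 genes passed after adjustment, and the smallest adjusted p was 0.195 (limma, HQ and HR arrays alone). The count at an unadjusted p under 0.05, 282 as reported, was 67 with normexp background correction, 751 with array weights, 634 with slide as a block, 558 with slide as a random block and 12 against a minimum fold of 1.5. It was 438 with the replicate number as a block; same-numbered livers correlated at -0.03 to 0.68, 2 of 5 under 0.1, so the numbers do not pair them. Leaving out each liver in turn gave 232 to 437, the highest without HR 3. The count of genes without overlap, 24 as reported, was 12 with scaling to the array median, 1 with normexp, and 93 without HQ 1 and HR 6 together. It was 29 to 75 with 1 liver left out, a comparison of fewer livers, and over 1.5 times the reported count without any of HQ 1, 2, 3 and 5 and HR 1, 2, 3, 4 and 6. Of 118 named genes 84 kept their sign throughout, 13 of the leading 20 among them, and none passed. Of 38 lists, 12 kept the sign of their median: P450 genes, transporters, lipogenesis, glucose handling, male-biased genes, endoplasmic reticulum chaperones, clock, interferon, sinusoidal, Kupffer, stellate and erythrocyte markers. Normexp moved the median of all genes to 0.12. With normexp the 7 leading genes named above changed sign. The causes were not tested.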

Other observations

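Clock genes had mostly higher means in HQ: 14 of 20 measured lay above 0, with a median of 0.26, beside -0.01 over all genes, and 0 of 20 reached an unadjusted p under 0.05. Dbp, a clock output factor, differed by 0.88, Noct, a rhythmic deadenylase-like gene, by 0.63 and Per2, a repressor of the clock, by 0.51 (-0.04 on its other probe), while Arntl, the activator BMAL1, differed by -0.13. The clock's list levels ran from -0.45 to 0.71 in HQ and from -0.74 to 0.13 in HR, and the median was 0.07 with slide as a block. Oxidative phosphorylation subunits lay mostly on the other side, with 38 of 53 below 0 and a median of -0.08, which was -0.01 without HQ 1. That median kept its sign in 24 of 27 alternatives and reached 0.19. HQ 2 had the lowest list level, at -1.04, while the other HQ livers lay at -0.33 to 0.47 and HR at -0.25 to 0.46. The mean level was -0.07 in HQ and 0.01 in HR, and HQ 2 lowered the HQ mean most. Immediate early and stress genes had a median of -0.04, with Gadd45b, a growth arrest gene, at -1.44 and at -0.74 without HR 1, and Myc at -1.21.

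Among the genes without overlap outside the naming rule, chosen after their values were seen, Smo, the transducer of hedgehog signals, was at 2.59 ± 0.11 (SD, n = 5) in HQ and 2.19 ± 0.20 (n = 6) in HR. C2, a complement component made by the liver, was at 5.64 ± 0.10 in HQ and 5.21 ± 0.31 in HR. Rhbg, an ammonium transporter, differed by 0.80 (0.22 to 1.38) and Ocstamp, a gene of osteoclast fusion, by 0.73 (0.20 to 1.25). On the other side, Kyat3, a kynurenine aminotransferase, was at 4.35 ± 0.32 in HQ and 4.92 ± 0.25 in HR, and Usp9x, a deubiquitinase, differed by -0.47 (-0.87 to -0.07). The adjusted p of each was 1.00 (limma).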
